A study of Homo sapiens with 10 samples.

Results

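The genes described here encode the machinery that fuses synaptic vesicles with the plasma membrane and retrieves them afterwards. The list holds 47 genes, named by their symbols, and takes for each gene the brightest probe set that the platform annotation ties to that gene alone. Of these, 41 were measured among 14232 named genes on the array. SYN3, DOC2A, STXBP5 and NSF had only probe sets shared with another gene, SV2C and RIMS3 had none in the annotation used, and these 6 were not analysed here. Secretory granule proteins of the granin family are not in the list.

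RNA was measured on 10 Affymetrix exon arrays, in gene-level log2 intensities. The cells were SH-SY5Y, a human neuroblastoma line of sympathetic, noradrenergic character, stably transfected and kept in G418 at 400 µg/ml. One line carried SOD1(G93A), a form of superoxide dismutase that causes familial amyotrophic lateral sclerosis (ALS), and the other carried wild-type SOD1, with 5 arrays each. An untransfected line was not analysed here. The sources used here do not state whether the lines are clones or pools, and the cells also have SOD1 of their own.

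Release at a nerve terminal turns on a complex of SNARE proteins, in which VAMP on the vesicle pairs with syntaxin and SNAP25 on the plasma membrane. Active-zone scaffolds such as RIM, ELKS, bassoon and piccolo hold vesicles near calcium channels, UNC13 and CAPS proteins prime them, and synaptotagmins trigger fusion when they bind calcium. Clathrin adaptors, BAR-domain proteins, dynamin and synaptojanin then bring the membrane back. Sympathetic-type neuroblastoma cells store catecholamines and use much of this machinery for vesicles and dense-core granules.

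Correlations between arrays averaged from 0.991 to 0.993 with the arrays of the same line and from 0.987 to 0.989 with those of the other. SOD1 averaged 9.55 ± 0.09 in SOD1(G93A) arrays and 9.78 ± 0.13 in wild-type SOD1 arrays (SD, n = 5 each), and was not called (limma, adjusted p = 0.107). Of the noradrenergic neuroblastoma markers, 11 were measured and 0 lay under the lower quartile of probe set levels. Their mean ran from 9.29 to 9.53 over the SOD1(G93A) arrays and from 9.36 to 9.53 over the wild-type arrays. Of these markers 2 rose and 2 fell, or 36.4% called, against 9.60% of all named genes. Of 11 mesenchymal (S-type) neuroblastoma markers 5 rose and 1 fell, or 54.5% called. The largest rise was that of TIMP1, with a log2 fold change of 1.46 (SE 0.11). The marker that fell was SNAI2, with a log2 fold change of −1.03 (SE 0.10). The mean of this list ran from 7.05 to 7.21 in SOD1(G93A) arrays, while in wild-type arrays it started at 6.80 and did not reach that range. Of 8 Schwann and glial markers, GJA1 rose by 1.06 and S100B by 0.73, and 6 were not called. The wild-type mean of S100B, 3.69, lay under that lower quartile. Estimates of the list lay above 0 in 4 markers and below 0 in 4, with a median of 0.00. The list's mean ran from 4.46 to 4.61 in SOD1(G93A) arrays and from 4.23 to 4.35 in wild-type arrays. Of 10 markers of immune and endothelial cells, 0 were called by limma or the unmoderated test and 0 had an unadjusted p under 0.05. The part of these marker shifts in the results below was not tested, and in a bulk sample fewer cells of a type and less RNA per cell cannot be told apart.

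Of the 41 measured genes, 12 differed between the lines at an adjusted p of 0.05 or less over all probe sets. That is 29.3%, against 9.60% of all named genes. The members, like the lists of relatives, factors and markers, were chosen with earlier results of these data known. The shares in these lists are therefore descriptions and not tests. SYT5, PCLO, SYT1, SNAP25, RIMBP2 and SYT11 were higher in the SOD1(G93A) line, and RIMS1, ERC2, SYT13, CPLX2, DOC2B and BIN1 were lower. Each direction thus held 14.6% of the measured members, where 4.03% of named genes were called higher and 5.57% lower. The median log2 fold change of the members was 0.03, beside −0.00 over all named genes, with 22 estimates above 0 and 19 below. In absolute size the median was 0.17 in members and 0.09 in all named genes.

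Only RIMS1 also passed the labels' second threshold of a 2-fold difference, which 1.18% of named genes did. Values of the groups did not overlap in 11 members, or 26.8%, against 11.4% of named genes. These were 10 of the 12 called genes and CPLX1, which was not called. DOC2B and CPLX2 were called although their groups overlapped.

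**Figure D1:**
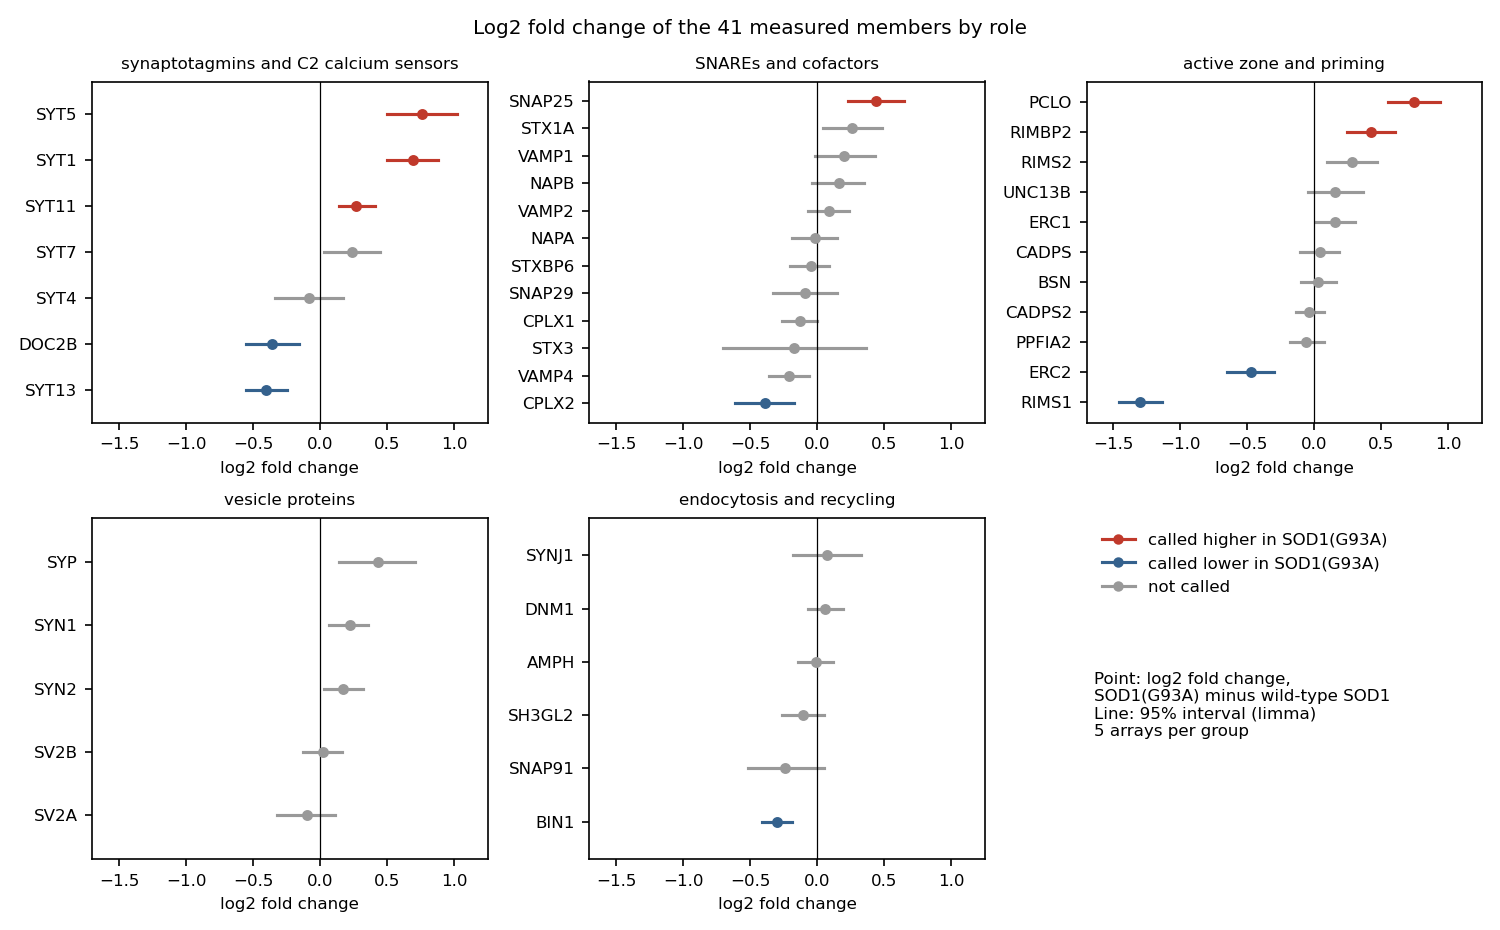
Log2 fold change (x axis, SOD1(G93A) minus wild-type SOD1) of the 41 measured members by role, with 95% intervals from limma over 5 arrays per group. Called genes lay on both sides of 0 among the synaptotagmins, the SNARE cofactors and the active-zone genes, and RIMS1 lay farthest from 0 at −1.30.

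Several transcriptional regulators have known roles at promoters of vesicle genes, and 10 of them were measured. Of these, 0 rose and 3 fell, or 30.0% called against 9.60% of all named genes. REST, the repressor that silences neuronal genes outside the nervous system, had levels of 6.75, 6.80, 6.91, 6.96 and 7.09 in SOD1(G93A) arrays, against 7.57, 7.43, 7.62, 7.51 and 7.37 in wild-type arrays. Array values are listed for samples 3, 9, 12, 15 and 18 of the SOD1(G93A) line and samples 2, 8, 11, 14 and 17 of the wild-type line, here and below. The groups did not overlap, and REST fell by 0.60 (SE 0.08, adjusted p = 0.000589). EGR1, an immediate-early activator, averaged 6.27 ± 0.09 in SOD1(G93A) arrays and 6.94 ± 0.24 in wild-type arrays and fell by 0.66 (SE 0.11, adjusted p = 0.00305). MYT1L, a neuronal factor whose gene lies in a stretch of chromosome 2 where 101 of 201 named genes were called lower, fell by 0.88 (SE 0.10). SP1, CREB1 and NRF1 were not called, with differences of −0.05, −0.11 and −0.16.

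The 250 bases before the RefSeq starts of 38 of the 47 genes (assembly GRCh38.p14) were searched on both strands. The letters searched were those of sites for REST, EGR1, SP1, CREB1 and NRF1. The left part of the REST element, TTCAGCACC, was present in 1 of the 38 and in 0.355% of 27305 genes. Its right part, GGACAGNGC, was found in 2 members, SYN1 and BSN, and in 2.27% of genes. SYN1 was the only member with both parts at their usual spacing of 2 bases, a pattern that 3 genes of the 27305 held in these windows. Each part was in 0 of 5 searched promoters of genes called higher and in 0 of 4 of genes called lower.

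For EGR1 the letters GCGNGGGCG were found in 7 members (18.4%) and in 10.1% of genes. These members were SYN1, SYP, SV2B, VAMP2, BSN, PCLO and AMPH. The letters were in 1 of 5 searched promoters of genes called higher and in 0 of 4 of genes called lower. The GC box of SP1, GGGCGG, which can overlap the EGR1 letters, was in 78.9% of members and 46.2% of genes. It occurred in 4 of 5 searched promoters of genes called higher and in 3 of 4 of genes called lower, too few to compare the directions. The cAMP response element TGACGTCA was in SYN1 alone among the members, and the NRF1 letters GCGCATGCG in STX1A, NAPA and BSN. The shares over all genes were not matched to the members for base composition or kind of gene. A match of letters is a description and not a bound site. Sites with other letters, or outside these windows, were not searched for, so a lack of matches does not show a lack of sites.

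The windows of SYN1, which carries both parts of the REST element, of SYT1 and PCLO, called higher, and of RIMS1, the largest fall, are given 5′ to 3′ on the strand of the gene, from RefSeq, each ending at the base before the start (the outermost of 3 starts for RIMS1). Capitals mark the parts of the REST element, EGR1 letters, GC boxes and cAMP response element found.
SYN1, chrX:47619858-47620107, minus strand: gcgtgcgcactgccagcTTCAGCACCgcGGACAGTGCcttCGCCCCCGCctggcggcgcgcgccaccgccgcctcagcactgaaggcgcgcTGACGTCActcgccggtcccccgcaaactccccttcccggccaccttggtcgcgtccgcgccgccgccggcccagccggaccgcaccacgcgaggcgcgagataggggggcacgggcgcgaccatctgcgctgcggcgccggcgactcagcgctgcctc
SYT1, chr12:78864524-78864773, plus strand: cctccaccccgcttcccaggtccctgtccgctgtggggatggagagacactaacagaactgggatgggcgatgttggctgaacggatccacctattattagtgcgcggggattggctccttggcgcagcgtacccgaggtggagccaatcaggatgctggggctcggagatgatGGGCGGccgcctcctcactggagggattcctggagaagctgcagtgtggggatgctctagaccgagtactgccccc
PCLO, chr7:83162885-83163134, minus strand: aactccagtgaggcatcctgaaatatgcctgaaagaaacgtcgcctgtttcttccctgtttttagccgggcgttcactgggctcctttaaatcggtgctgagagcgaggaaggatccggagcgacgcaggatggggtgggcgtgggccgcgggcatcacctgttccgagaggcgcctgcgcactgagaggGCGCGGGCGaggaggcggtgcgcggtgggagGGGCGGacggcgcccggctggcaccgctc
RIMS1, chr6:71886300-71886549, plus strand: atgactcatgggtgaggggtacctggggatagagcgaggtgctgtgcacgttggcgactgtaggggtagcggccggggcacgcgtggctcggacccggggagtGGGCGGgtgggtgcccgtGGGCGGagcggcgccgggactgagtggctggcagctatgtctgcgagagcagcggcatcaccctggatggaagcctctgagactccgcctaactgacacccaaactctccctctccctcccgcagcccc
In SYN1 the parts of the REST element begin 233 and 222 bases before the start, and the cAMP response element begins 159 bases before it. SYT1 and RIMS1 held GC boxes and no letters of the other sites. PCLO held an EGR1 match beginning 60 bases before its start and a GC box at 29.

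Synaptotagmins are vesicle proteins with C2 domains that in most family members bind calcium and membrane. This role group had the highest share of called genes, 5 of 7 measured, or 71.4% against 9.60% of all named genes. SYT1, the main calcium sensor of fast transmitter release, had log2 intensities of 9.31, 9.13, 9.39, 9.56 and 9.50 in SOD1(G93A) arrays, against 8.76, 8.58, 8.75, 8.79 and 8.56 in wild-type arrays. All 5 SOD1(G93A) arrays lay above all 5 wild-type arrays. The log2 fold change was 0.69 (SE 0.09, limma adjusted p = 0.000578), a 1.61-fold difference.

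SYT5, a synaptotagmin found on dense-core vesicles, stood at 7.50, 7.44, 7.50, 7.52 and 7.70 in SOD1(G93A) arrays, against 6.91, 7.03, 6.33, 6.74 and 6.84 in wild-type arrays. The groups were apart, and the spread was wider in the wild-type line, where sample 11 was lowest. The log2 fold change was 0.76 (SE 0.12, adjusted p = 0.00221).

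SYT11, a form that lacks part of the calcium-binding residues, measured 10.65, 10.66, 10.67, 10.62 and 10.77 in SOD1(G93A) arrays, against 10.24, 10.39, 10.52, 10.41 and 10.46 in wild-type arrays. The groups did not overlap, but the gap between them was small. Its rise was 0.27 (SE 0.06, adjusted p = 0.0208), and the call was lost without wild-type sample 8 (adjusted p = 0.051).

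SYT13, which does not bind calcium, had levels of 3.66, 3.54, 3.65, 3.75 and 3.64 in SOD1(G93A) arrays, against 3.88, 4.20, 3.98, 4.05 and 4.13 in wild-type arrays. It was lower in every SOD1(G93A) array, by 0.40 in the fit (log2 fold change −0.40, SE 0.07, adjusted p = 0.0042). Its SOD1(G93A) mean of 3.65 was under 3.87, the lower quartile of probe set levels, where RMA compresses differences.

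DOC2B, a high-affinity calcium sensor with C2 domains, had 8.29, 8.12, 8.24, 8.21 and 8.36 in SOD1(G93A) arrays, against 8.32, 8.56, 8.71, 8.79 and 8.62 in wild-type arrays. Wild-type sample 2 lay within the SOD1(G93A) range. DOC2B fell by 0.36 on the log2 scale (SE 0.09, adjusted p = 0.0315), which did not pass when any 1 of 8 arrays was omitted (highest adjusted p 0.0803).

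The remaining members of the group were not called. SYT7, a slow sensor with high calcium affinity, averaged 6.31 ± 0.19 in SOD1(G93A) arrays and 6.06 ± 0.11 in wild-type arrays (SD, n = 5 each), and its log2 difference of 0.24 had an interval from 0.03 to 0.45 (adjusted p = 0.186). SYT4, an activity-regulated form with weak calcium binding, averaged 11.36 ± 0.24 in SOD1(G93A) arrays and 11.44 ± 0.14 in wild-type arrays, with an interval of the difference from −0.34 to 0.17. The SYT4 interval thus lay well inside a 2-fold change in either direction.

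Relatives outside the 47 genes were measured too, 18 of them, of which 6 rose and 1 fell. That is 38.9% called, against 9.60% of all named genes. SYT2, which with SYT1 and SYT9 serves as a fast calcium sensor in mouse neurons, averaged 7.19 ± 0.17 in SOD1(G93A) arrays and 5.93 ± 0.15 in wild-type arrays (log2 fold change 1.26, SE 0.10, adjusted p = 1.46e-05). SYT9 averaged 6.53 ± 0.10 in SOD1(G93A) arrays and 5.57 ± 0.12 in wild-type arrays (SD, n = 5 each), with a log2 fold change of 0.97 (SE 0.07, adjusted p = 1.2e-05). All 3 of these sensors were therefore higher in the SOD1(G93A) line, with no overlap between the groups. SYT17, an atypical form, rose by 0.72 (SE 0.07). RPH3A, which encodes rabphilin, a RAB3 effector with C2 domains, fell by 0.84 (SE 0.13, adjusted p = 0.00184).

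**Figure D2:**
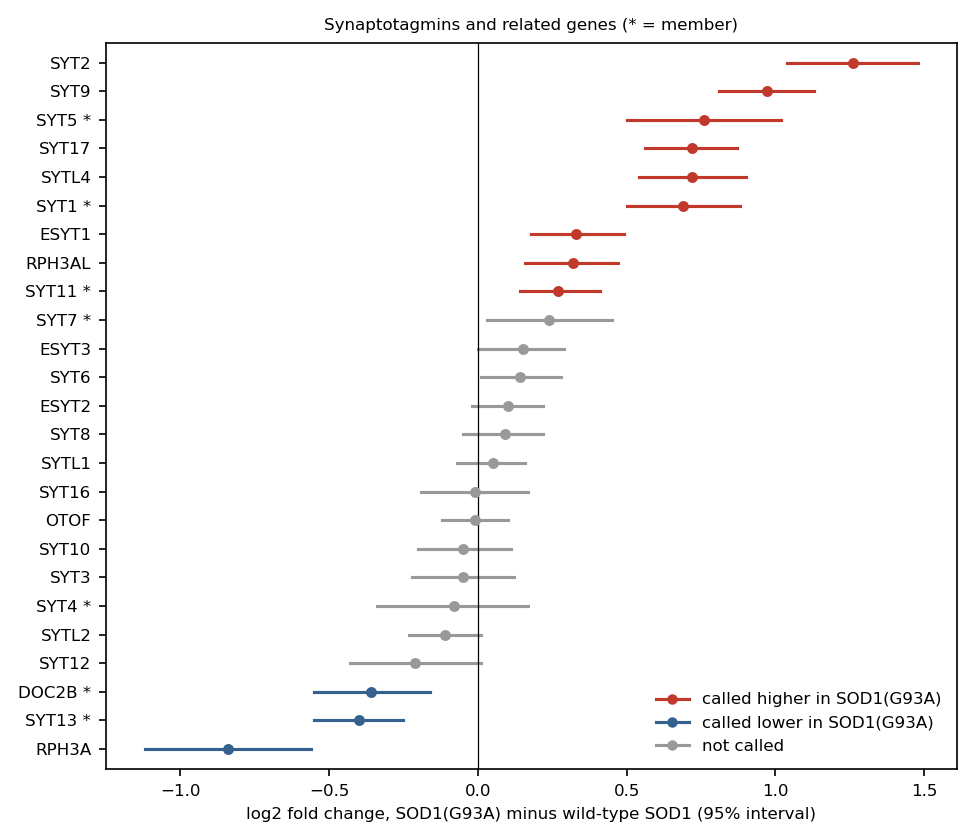
Log2 fold change (x axis, SOD1(G93A) minus wild-type SOD1, 95% interval) of the 7 measured members with C2 domains, marked by asterisks, and 18 related genes. SYT2, SYT9, SYT5 and SYT1 lay to the right of 0 with intervals that do not reach it, and RPH3A lay farthest to the left.

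Of 11 measured active-zone and priming genes 2 rose and 2 fell, or 36.4% called against 9.60% of all named genes. RIMS1 had the largest difference of all 41 members. RIMS1, a RIM protein that ties RAB3 on vesicles to UNC13 and calcium channels, had levels of 5.95, 5.96, 5.82, 5.74 and 5.86 in SOD1(G93A) arrays, against 7.24, 7.13, 7.17, 7.32 and 6.98 in wild-type arrays. The groups were separated by a gap several times the spread within either line. RIMS1 fell by 1.30 on the log2 scale (SE 0.07, adjusted p = 1.14e-06), or 2.47-fold, and the value stayed between −1.35 and −1.27 over 19 alternative settings.

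Its paralog RIMS2 went to the other side of 0 without passing the test. The levels of RIMS2 were 5.90, 5.96, 5.84, 5.81 and 6.06 in SOD1(G93A) arrays, against 5.66, 5.58, 5.48, 5.91 and 5.54 in wild-type arrays. Wild-type sample 14 lay among the SOD1(G93A) values, and the difference was 0.28 (95% interval 0.09 to 0.47, adjusted p = 0.0855). Without that array the adjusted p was 0.0154. No other fit that left out a single array called RIMS2.

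ERC2, the neuronal ELKS protein that binds RIM, had 4.42, 4.57, 4.38, 4.42 and 4.65 in SOD1(G93A) arrays, against 5.07, 4.85, 4.81, 5.10 and 4.97 in wild-type arrays. It was lower in every SOD1(G93A) array and fell by 0.47 (SE 0.08, adjusted p = 0.00319). ERC1, its broadly expressed relative, was not called, with 8.03 ± 0.07 in SOD1(G93A) arrays and 7.88 ± 0.11 in wild-type arrays (SD, n = 5 each; adjusted p = 0.243). The 2 ELKS genes thus had differences of opposite sign, of which the ERC2 fall passed the test.

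RIMBP2, a linker between RIM and calcium channels, stood at 8.20, 8.15, 8.39, 8.47 and 8.26 in SOD1(G93A) arrays, against 7.70, 7.81, 7.90, 8.01 and 7.96 in wild-type arrays. Every SOD1(G93A) array was higher. The rise was 0.42 (SE 0.08, adjusted p = 0.00932).

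PCLO encodes piccolo, a giant scaffold at the active zone. Its levels were 6.72, 6.43, 6.55, 6.58 and 6.87 in SOD1(G93A) arrays, against 6.01, 5.93, 5.89, 5.89 and 5.72 in wild-type arrays. The groups were well apart, and the log2 fold change was 0.74 (SE 0.09, adjusted p = 0.000339). A second, dimmer PCLO probe set also rose, by 0.46 (SE 0.09, adjusted p = 0.0101). BSN, which encodes the related scaffold bassoon, averaged 6.11 ± 0.10 in SOD1(G93A) arrays and 6.08 ± 0.03 in wild-type arrays, and the interval of its difference ran from −0.10 to 0.16.

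No call was made for the priming factors. UNC13B, a Munc13 protein that readies vesicles for fusion, averaged 7.23 ± 0.16 in SOD1(G93A) arrays and 7.08 ± 0.15 in wild-type arrays (SD, n = 5 each; adjusted p = 0.447). CADPS and CADPS2, the CAPS proteins of dense-core vesicle priming, differed by 0.04 and −0.04. CADPS2 and the liprin gene PPFIA2 lay under that lower quartile in both lines, so that little can be read from their small differences.

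Among 28 other active-zone and priming genes 1 rose and 2 fell, a share of 10.7% called, near the 9.60% of all named genes. PPFIBP1, a liprin-beta, averaged 4.43 ± 0.12 in SOD1(G93A) arrays and 5.82 ± 0.19 in wild-type arrays and fell by 1.39 (SE 0.10, adjusted p = 6.34e-06). APBA1, the Munc18-binding adaptor Mint1, fell by 0.76 (SE 0.07, adjusted p = 5.93e-05). CACNA1B, the pore subunit of the N-type calcium channel, rose by 0.32 (SE 0.06, adjusted p = 0.0084).

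**Figure D3:**
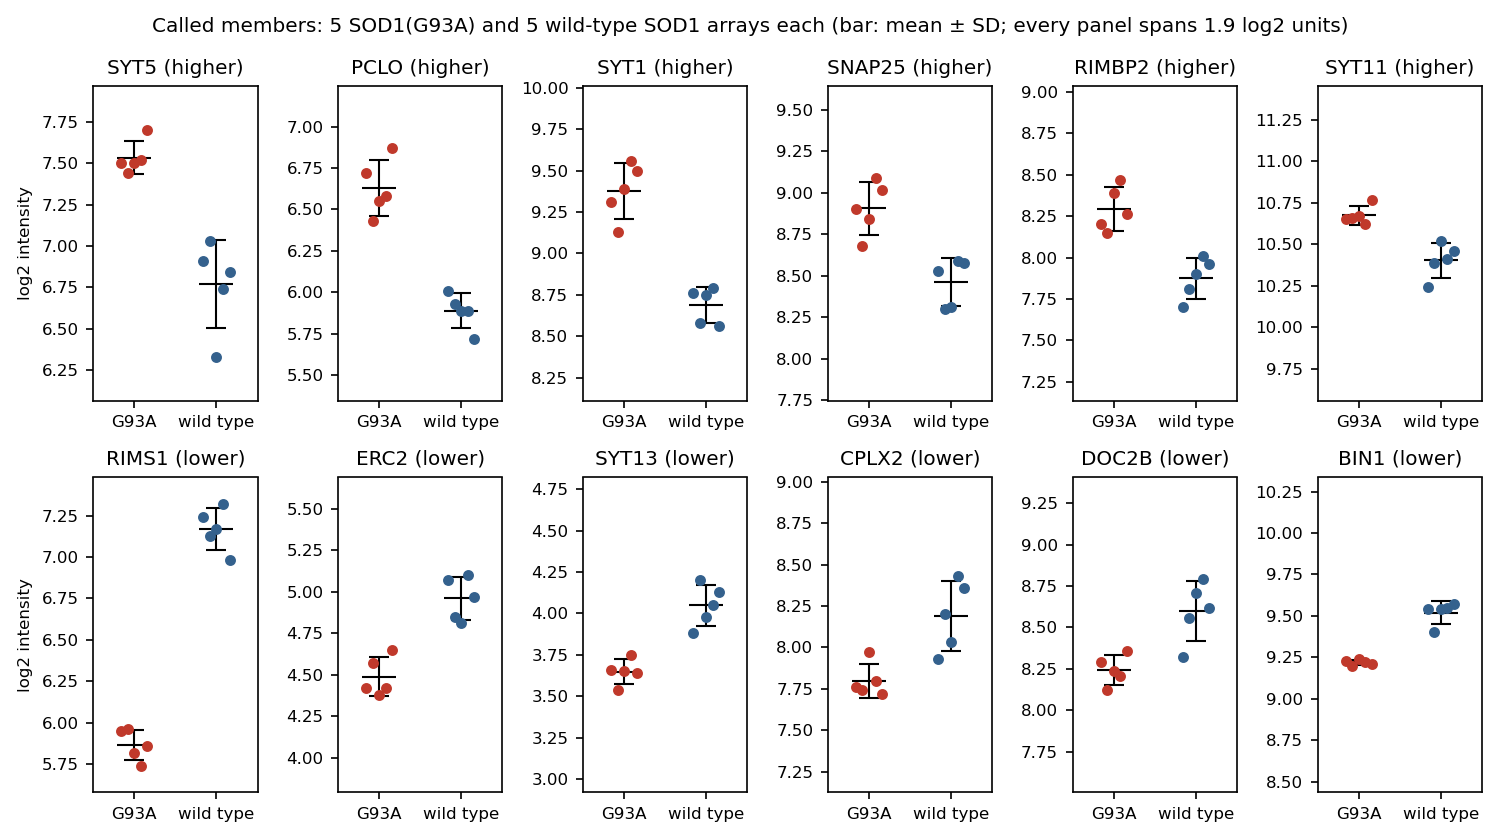
Log2 intensity (y axis, each panel spanning the same range of log2 units) of the 12 called members in 5 SOD1(G93A) arrays (left, red) and 5 wild-type SOD1 arrays (right, blue), with the mean and SD. The groups are apart in 10 panels and overlap for CPLX2 and DOC2B.

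Of 12 measured SNAREs and cofactors 1 rose and 1 fell, or 16.7% called against 9.60% of all named genes. SNAP25, the plasma-membrane SNARE cleaved by several botulinum toxins, had levels of 8.90, 8.68, 8.84, 9.09 and 9.02 in SOD1(G93A) arrays, against 8.53, 8.30, 8.31, 8.59 and 8.58 in wild-type arrays. The groups did not overlap, although SOD1(G93A) sample 9 came close to the highest wild-type arrays. The log2 fold change was 0.44 (SE 0.09, adjusted p = 0.0155).

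Its partners did not pass the test. STX1A, the neuronal plasma-membrane syntaxin, averaged 7.47 ± 0.17 in SOD1(G93A) arrays and 7.21 ± 0.16 in wild-type arrays, a difference of 0.26 with an interval from 0.04 to 0.48 (adjusted p = 0.178). VAMP2, the main synaptic vesicle SNARE, averaged 6.98 ± 0.07 in SOD1(G93A) arrays and 6.89 ± 0.13 in wild-type arrays (adjusted p = 0.598). VAMP1, its close relative at neuromuscular terminals, averaged 5.78 ± 0.06 in SOD1(G93A) arrays and 5.57 ± 0.23 in wild-type arrays (adjusted p = 0.316). These 3 genes lay on the same side of 0 as SNAP25, with smaller estimates.

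Complexins bind the assembled SNARE complex and both clamp and promote fusion. CPLX2 measured 7.76, 7.74, 7.97, 7.80 and 7.72 in SOD1(G93A) arrays, against 7.93, 8.20, 8.03, 8.43 and 8.36 in wild-type arrays. SOD1(G93A) sample 12 lay just above wild-type sample 2. The fall was 0.39 in the fit (log2 fold change −0.39, SE 0.10, adjusted p = 0.0402), and the call was lost when any 1 of 7 arrays was left out (adjusted p up to 0.0932). A second CPLX2 probe set fell by 0.68 (SE 0.08, adjusted p = 0.000395). CPLX1 averaged 7.07 ± 0.10 in SOD1(G93A) arrays and 7.20 ± 0.03 in wild-type arrays, and was not called (adjusted p = 0.265) although the groups did not overlap.

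The other members of this group were not called. SNAP29 and VAMP4, SNAREs of intracellular membranes, differed by −0.09 and −0.21. NAPA and NAPB, the adaptors that bring NSF to spent SNARE complexes, differed by −0.02 and 0.16. NAPB was lowest in SOD1(G93A) sample 12, and without that array its difference was 0.24 (adjusted p = 0.0204). No other fit that left out a single array called NAPB. STX3, a syntaxin of apical and ribbon-type release, and STXBP6, which encodes amisyn, lay under that lower quartile in both lines.

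Of 29 other SNARE-side genes, 3 rose and 0 fell, a share of 10.3% called, near the 9.60% of all named genes. STX7, a syntaxin of late endosomes, averaged 6.49 ± 0.18 in SOD1(G93A) arrays and 5.81 ± 0.07 in wild-type arrays and rose by 0.67 (SE 0.08, adjusted p = 0.000541). VAMP3, the VAMP of recycling endosomes, rose by 0.40 (SE 0.08), and STX2, a plasma-membrane syntaxin outside the neuronal pair, rose by 0.36 (SE 0.06).

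None of the 5 measured vesicle proteins was called by limma or by the unmoderated test, though 3 had an unadjusted p under 0.05. SYP encodes synaptophysin, the classic membrane marker of synaptic vesicles, and had the largest difference of the group. SYP measured 8.39, 8.65, 8.07, 8.51 and 8.66 in SOD1(G93A) arrays, against 7.86, 8.24, 7.85, 7.94 and 8.26 in wild-type arrays. SOD1(G93A) sample 12 fell within the wild-type range, and the difference was 0.43 (95% interval 0.14 to 0.71, adjusted p = 0.0821). Without that array the adjusted p was 0.0183. No other fit that left out a single array called SYP.

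The synapsins tether vesicles to actin and to each other. SYN1 had 7.21, 7.08, 7.16, 7.19 and 7.17 in SOD1(G93A) arrays, against 6.76, 7.09, 6.99, 6.91 and 6.97 in wild-type arrays. Only wild-type sample 8 reached into the SOD1(G93A) range, and the difference was 0.22 (95% interval 0.07 to 0.36, adjusted p = 0.077). It was past the threshold without that array (adjusted p = 0.0463), and in no other fit that left out a single array. SYN2 differed by 0.17 (adjusted p = 0.167). SV2A, a vesicle glycoprotein that is the target of levetiracetam, averaged 7.97 ± 0.19 in SOD1(G93A) arrays and 8.07 ± 0.14 in wild-type arrays (adjusted p = 0.669), and SV2B lay below the lower quartile in both lines.

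Beyond the list, 34 other genes of vesicle membranes and vesicle filling were measured, of which 4 rose and 2 fell. That is 17.6% called, against 9.60% of all named genes. RAB27B, a GTPase of granule docking, measured 6.59, 6.42, 6.23, 5.70 and 6.57 in SOD1(G93A) arrays, against 5.06, 5.11, 5.10, 4.81 and 5.41 in wild-type arrays, and rose by 1.20 (SE 0.17, adjusted p = 0.00118). SOD1(G93A) sample 15 was the lowest of its group but still above every wild-type array. SLC18A2, which loads monoamines, averaged 5.02 ± 0.16 in SOD1(G93A) arrays and 4.39 ± 0.07 in wild-type arrays and rose by 0.64. The other monoamine transporter gene, SLC18A1, averaged 10.88 in SOD1(G93A) arrays and 10.82 in wild-type arrays and was not called (adjusted p = 0.753). SLC18A3, which loads acetylcholine, averaged 6.66 ± 0.20 in SOD1(G93A) arrays and 7.75 ± 0.21 in wild-type arrays and fell by 1.09. SYNGR4, a synaptogyrin, rose by 0.70 (SE 0.14, adjusted p = 0.0112), and the remaining gene that rose was ATP6V1H, a subunit of the vesicular proton pump, by 0.30.

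Of the 6 endocytosis genes 0 rose and 1 fell, or 16.7% called against 9.60% of all named genes. The median absolute difference was 0.09, which was also the value over all named genes. BIN1, a BAR-domain protein of the amphiphysin family, stood at 9.23, 9.20, 9.24, 9.22 and 9.21 in SOD1(G93A) arrays, against 9.54, 9.40, 9.54, 9.55 and 9.57 in wild-type arrays. The SOD1(G93A) arrays were nearly alike and all below the wild-type arrays. It fell by 0.30 on the log2 scale (SE 0.05, adjusted p = 0.00337), a 1.23-fold difference.

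The other 5 were not called, with differences between −0.24 and 0.07. DNM1, the neuronal dynamin that pinches off endocytic vesicles, averaged 8.09 ± 0.07 in SOD1(G93A) arrays and 8.03 ± 0.08 in wild-type arrays, and its interval ran from −0.07 to 0.19. SYNJ1, the lipid phosphatase that strips clathrin coats, had an interval from −0.18 to 0.33. For SNAP91, the clathrin adaptor AP180, the interval ran from −0.52 to 0.05. AMPH and SH3GL2, which encode amphiphysin and endophilin A1, lay under that lower quartile.

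Of 51 other endocytosis genes 1 rose and 5 fell, or 11.8% called, near the 9.60% of all named genes. SGIP1, an endocytic regulator enriched in brain, averaged 6.62 ± 0.03 in SOD1(G93A) arrays and 7.48 ± 0.11 in wild-type arrays and fell by 0.85 (SE 0.06, adjusted p = 6.6e-06). SYNJ2, the broadly expressed synaptojanin, fell by 0.42 (SE 0.06) and the arrestin gene ARRB1 by 0.34 (SE 0.07). ITSN2, an intersectin scaffold, fell by 0.60 (SE 0.14, adjusted p = 0.025), which did not pass when any 1 of 6 arrays was omitted (highest adjusted p 0.0651). ITSN2 lies with MYT1L in the chromosome 2 stretch of genes called lower, which runs from SH3YL1 to ACYP2. No member of the 47 lies in that stretch.

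Over all 29 members that were not called, estimates ran from −0.24 to 0.43. Every one of their 95% intervals lay within a 2-fold change in either direction. SV2B, STX3, STXBP6, PPFIA2, CADPS2, AMPH and SH3GL2 lay under the lower quartile in both lines. There RMA compresses differences, so their intervals bound little. For the others the arrays bound the differences in measured level. A p above the threshold does not show that the lines were alike. Of the 160 measured relatives of the 5 role groups, 15 rose and 10 fell, or 15.6% called against 9.60% of all named genes.

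Genes next to the called members on their chromosomes were measured as well. Up to 5 measured neighbours on each side of every called member gave 115 genes in all. Of these, 14 (12.2%) were called in the same direction as the member, where 4.03% of all named genes were called higher and 5.57% lower. PCLO and SNAP25 held 4 and 3 of the 14. In either direction 18.3% of the neighbours were called, against 9.60% of named genes. The most were at PCLO, with 4 of 10 neighbours called higher. In order along chromosome 7, HGF, a growth factor, rose by 5.70 (SE 0.15), CACNA2D1 by 0.75 (SE 0.13), PCLO itself by 0.74, SEMA3A by 1.71 (SE 0.11) and SEMA3D by 1.14 (SE 0.17). These 5 genes are consecutive among the measured ones. SEMA3C, next to HGF, fell by 0.75 (SE 0.10), and GRM3, on the far side of SEMA3D, differed by −0.10 and was not called. HGF averaged 8.44 ± 0.32 in SOD1(G93A) arrays and 2.75 ± 0.20 in wild-type arrays.

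Near SNAP25 on chromosome 20, 3 of 10 neighbours were called higher, PLCB1 by 0.35, PLCB4 by 0.79 and ANKEF1 by 0.34, while LAMP5 between them fell by 1.56. RIMS1, SYT1, SYT11 and ERC2 each had 0 of 10 neighbours called in their direction, and DOC2B 0 of 5. DNA copy number was not measured, and its part in these values was not tested.

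**Figure D4:**
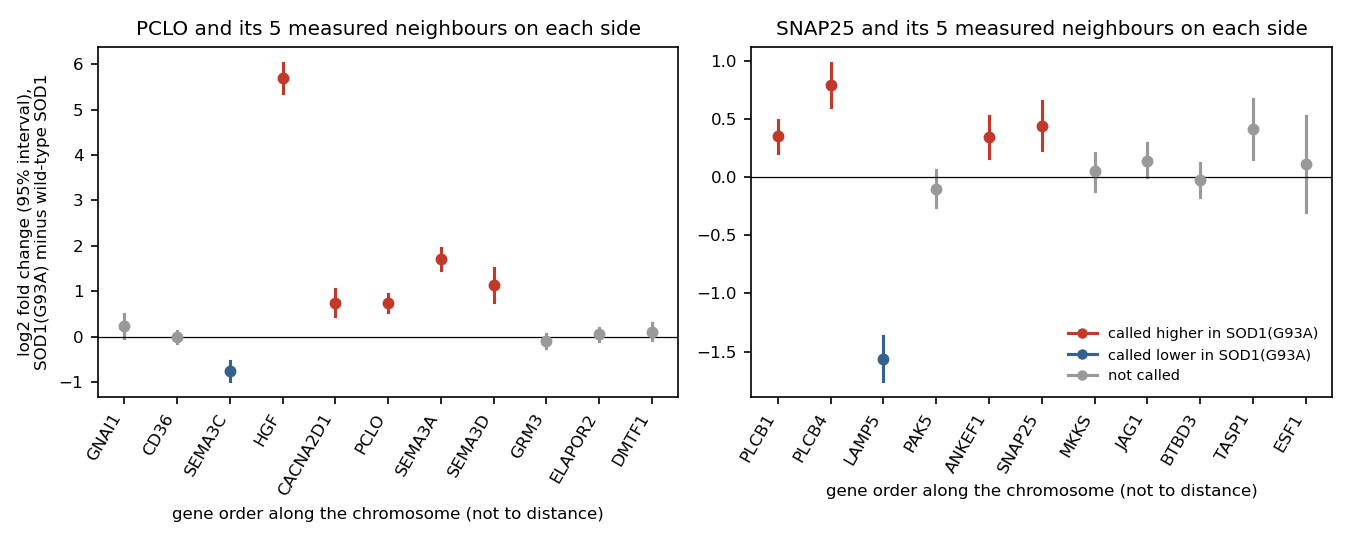
Log2 fold change (y axis, SOD1(G93A) minus wild-type SOD1, 95% interval) of PCLO (left panel) and SNAP25 (right panel) and their 5 measured neighbours on each side, in gene order (x axis, not to distance). HGF, CACNA2D1, PCLO, SEMA3A and SEMA3D form an unbroken run above 0.

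The extremes of the members fell unevenly over the arrays. Among SOD1(G93A) arrays, sample 9 was the lowest in 20 of 41 members and sample 18 the highest in 13, and over all named genes these arrays held those places in 29.8% and 29.1%. In the wild-type line, sample 14 was the highest in 14 members, against 11.3% of named genes. Wild-type sample 2 was the lowest in 12 members, against 21.7% of named genes. The mean over all 41 members ran from 6.45 to 6.57 in SOD1(G93A) arrays and from 6.44 to 6.52 in wild-type arrays, so that the lines overlapped in the average while 10 called genes were apart.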

How the data were processed

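RNA of 10 SH-SY5Y samples was read on exon arrays. The authors deposited log2 intensities, 1 per gene-level probe set, made with RMA, per the submitters' processing notes, in oneChannelGUI 1.6.5, per the labels. RMA quantile-normalizes, so a shift of all genes is not visible, and it compresses dim differences. Not given in the sources used here: genome build and filters. The lower quartile was 3.84 to 3.89 per array. The number of arrays limits the precision.

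Groups came from the titles, and samples are called by their title numbers. Whether the 5 samples of a line were separate cultures is not given, so p-values measure only the spread between samples, possibly a technical one. Effects of the construct cannot be told apart from other differences between the lines.

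Of 22011 probe sets, 14432 had 1 symbol (brought up to date by gene ID against RefSeq, GRCh38.p14), 2408 several and 5171 none. Differences are SOD1(G93A) minus wild-type SOD1, from limma 3.58.1 in R 4.3.3 (lmFit, eBayes, 2-sided, Benjamini-Hochberg over all 22011 probe sets, no filter). The threshold for calling a gene, and for writing that it rose or fell, was an adjusted p of 0.05. SE is limma's moderated standard error. The fit was tested on simulated data.

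The members, roles and lists of relatives, factors and markers were chosen with earlier results of these data known. Array values are given for every called member, for the largest difference in a role group without calls, and for RIMS2 and SYN1, added after their values were seen. They are also given for REST and RAB27B, which are outside the members. Of each list of relatives, up to 4 called genes with the largest differences are named. BSN, ERC1 and other uncalled members are named to account for the list. Alternatives were probe sets above the median level, array centring, repeated quantile normalization, a trend with robust prior, an unmoderated test, array weights, averaging a gene's probe sets, leaving out arrays, and a block of adjacent sample numbers. ATP6V1H and SLC18A1 were added after their values were seen.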

Additional observations from a re-analysis of the deposited data

Results flagged for a closer look

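Of the 82 groups of 5 arrays behind the 41 members, 3 held an array far from the other 4 by the gap over the whole range, a rule that flags about 1 group in 20 by chance. NAPB was 6.69 in SOD1(G93A) sample 12, where the nearest other array of the line had 7.07. VAMP2 was 7.12 in wild-type sample 17, with the next array at 6.90. BIN1 was 9.40 in wild-type sample 8, below the next at 9.54, and still above every SOD1(G93A) array.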

How the results depend on the processing

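Across 19 alternative settings the number of members called higher ran from 5 to 8 and called lower from 4 to 6, beside 6 and 6. The number also past the 2-fold threshold was 1 throughout, RIMS1. Of the 12 called members, 9 kept their call in every setting that tested them, and 0 changed sign. The unmoderated test lost DOC2B and CPLX2 (adjusted p = 0.0548 and 0.0725), and ITSN2 among the relatives (adjusted p = 0.061). Without SOD1(G93A) sample 18 and wild-type sample 17 together, SYT11, DOC2B and CPLX2 were lost (adjusted p = 0.0685, 0.078 and 0.166), and ARRB1 and ITSN2 among the relatives (adjusted p = 0.0762 and 0.0512). Among probe sets above the median level, 24 members were tested, which left out SYT13, ERC2 and PCLO, and SYP was called (adjusted p = 0.0378). The SNAP25 call came closest to being lost among those kept, with adjusted p up to 0.0498. Array centring moved the median over named genes from −0.004 to −0.012. The groups share no sample number, and the labels state no pairing. A fit with adjacent numbers (SOD1(G93A) 3 with wild-type 2, and so on) as a replicate block, chosen after seeing the data, called 6 members higher and 4 lower. It called SYP (adjusted p = 0.0193) and did not call SYT11, DOC2B, CPLX2 and ARRB1 (adjusted p = 0.0561, 0.0816, 0.1 and 0.0696). Deviations of such neighbours from their group means correlated between −0.034 and 0.142, over 0.1 in 1 of 5 pairs, and 1 pair held each other's best match. The causes of these changes were not tested.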
